A study of Mus musculus with 4 samples.

Results

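The genes described are 9 replication-independent histone variants: H3f3a and H3f3b, which encode H3.3; H2afz and H2afv, which encode the H2A.Z proteins; H2afx, H2afy and H2afj of the H2A class; and H1f0 and H1fx, linker histones. They were taken by symbol from 55536 annotated mouse genes, and 8 of the 9 passed the count filter for testing, a mean of at least 10 counts, which 14041 genes passed in all. RNA was measured by ribosome-depleted total RNA sequencing of the cytosolic fraction of bone marrow-derived macrophages, primary cells of C57BL/6J mice, 15 minutes after addition of lipid A, the part of bacterial lipopolysaccharide that Toll-like receptor 4 recognises, at 100 ng/ml. All 4 libraries belong to that 1 group, and neither unstimulated cells nor nuclei were analysed here, so levels and not responses are described. The comparisons the design allows are between genes and between each library and the other 3. Sex and age were not collected, per the labels, and all 4 libraries carry 1 donor record. Whether separate animals or cultures were used is not stated; a p-value then measures only how far these samples spread, and that spread may be technical.

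Histones wrap DNA into nucleosomes. The bulk of them is made from clustered genes that are active while DNA is copied and whose mRNAs end in a stem-loop instead of a poly(A) tail. Variant histones are made throughout the cell cycle, also by cells that no longer divide, and are put into chromatin by their own chaperones. H3.3 marks active genes, H2A.Z flanks promoters, H2A.X is phosphorylated at DNA breaks, macroH2A carries a large extra domain, and H1.0, the product of H1f0, accumulates in non-dividing cells.

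Libraries held 30088678 to 47961117 expected counts on annotated genes, with the fewest in replicate 1. There a count of 0 would allow up to 0.0997 CPM (counts scaled by the library total), from counting error alone. The macrophage label matched its markers: 9 of 9 macrophage genes averaged at least 1 TPM (transcript abundance per length), with a summed 5381 to 8747 TPM per library, against 0 of 28 markers of 7 other cell types. The summed level over a library did not pass 0.18 TPM for T cell markers, 1.21 for B cell, 2.45 for neutrophil, 0.07 for erythroid, 1.85 for megakaryocyte, 0.81 for stromal and 0.21 for mast cell and basophil markers, and Hbb-bt had no count. Replicate 1 stood apart. It had higher counts than replicates 2 to 4 for 2031 genes, 14.5% of those tested, and lower counts for 1065, 7.58% (edgeR's quasi-likelihood test, Benjamini-Hochberg adjusted p under 0.05). Among them were 17 of 18 fixed S phase and mitosis genes, all higher, with a summed level of 497 TPM in replicate 1 against 119, 122 and 167 TPM in replicates 2, 3 and 4. In bulk RNA, a change in the number of cells of a kind and in RNA per cell cannot be told apart.

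Sequences are shown first for the places where these genes differ from each other or from the clustered histone genes. Both H3.3 genes encode the same 136 residues, yet only 76.7% of their coding bases are the same (313 of 408), so the coding bases distinguish the genes. In the first 90 coding bases, given here from GENCODE M21 on mm10, capitals mark the 20 positions at which the genes differ. H3f3a lies at chr1:180811837-180811926 and H3f3b at chr11:116023920-116024009, both on the minus strand.
H3f3a: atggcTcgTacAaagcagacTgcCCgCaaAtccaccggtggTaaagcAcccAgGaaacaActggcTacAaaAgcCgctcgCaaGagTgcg
H3f3b: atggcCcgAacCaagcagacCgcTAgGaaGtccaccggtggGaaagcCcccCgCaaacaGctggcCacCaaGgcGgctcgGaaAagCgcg
The H2A.Z genes are less alike in protein, with 3 of 128 residues different and 79.2% of coding bases shared. H1f0 and H1fx share only 27.0% of aligned residues. On the same build, H2afz lies at chr3:137864487-137866922, H2afj at chr6:136808244-136810074 and H1f0 at chr15:79028450-79030504 on the plus strand, and H2afv at chr11:6427229-6444443 and H1fx at chr6:87980421-87981637 on the minus strand.

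H2afy encodes macroH2A1, and its 2 coding models differ by a mutually exclusive exon. H2afy-201 uses 100 bases at chr13:56089758-56089857 and H2afy-202 uses 91 bases at chr13:56088252-56088342, both on the minus strand. Capitals mark the bases not shared by the other exon, of which 48 of 100 aligned columns are the same.
H2afy-201: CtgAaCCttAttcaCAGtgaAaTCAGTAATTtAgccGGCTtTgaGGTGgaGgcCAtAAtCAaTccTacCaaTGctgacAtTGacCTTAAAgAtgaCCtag
H2afy-202: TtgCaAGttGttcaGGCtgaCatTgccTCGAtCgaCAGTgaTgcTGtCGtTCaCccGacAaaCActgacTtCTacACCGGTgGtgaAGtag
The product of H2afy-202, of 369 residues, is macroH2A1.1, the form whose macro domain binds ADP-ribose. The product of H2afy-201, of 372 residues, is macroH2A1.2, which does not.

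H2afx is the member whose gene also holds the stem-loop of clustered histone genes, and it is known to make both a stem-loop-ended and a polyadenylated mRNA. The stem-loop was searched on the transcript strand as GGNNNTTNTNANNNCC with a paired stem of 6 bases. The stretch shown is chr9:44335233-44335262 on the plus strand. Capitals mark the match, which starts 49 bases, stop codon included, after the last amino-acid codon and ends 822 bases before the annotated end.
H2afx: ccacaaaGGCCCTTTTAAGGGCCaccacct
For shares over genes, the motif was searched anywhere in a protein-coding transcript, not only after the stop codon. A match was then found in 1 of the 9 members and in 46 of 67 genes with clustered histone symbols (68.7%). Over all 21901 protein-coding genes searched, the share was 0.315%. A match is a description, not a measured 3′ end.

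The H3.3 genes led the family. H3f3a stood at 172, 188, 148 and 274 TPM in replicates 1, 2, 3 and 4, and H3f3b at 205, 131, 178 and 217 TPM. In TPM, replicate 4 was the highest library for both genes, but the lowest was replicate 3 for H3f3a and replicate 2 for H3f3b. These orders were only partly kept in CPM scaled by TMM, where replicate 1 was lowest for H3f3a and replicate 3 highest for H3f3b. There H3f3a had 212, 309, 250 and 338, and H3f3b had 531, 466, 590 and 490, in replicates 1, 2, 3 and 4. By mean level they ranked 179th and 203rd among 9630 protein-coding genes with at least 1 TPM. Together they made 73.0 ± 2.49% (SD, n = 4) of the summed 519 ± 108 TPM of the 9 genes.

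H3f3a supplied 45.6%, 58.8%, 45.4% and 55.8% of H3.3 TPM in replicates 1, 2, 3 and 4. It was the higher gene in replicates 2 and 4 and the lower one in replicates 1 and 3. The difference of H3f3a over H3f3b averaged 0.08 ± 0.40 on the log2(TPM + 1) scale (SD, n = 4), less than its spread. A two-sided sign-flip permutation over the 4 libraries, done exactly, gave p = 0.75, a mean as far from 0 in 12 of 16 sign patterns. The fewest that 4 libraries allow is 2 of 16, so this test cannot reach 0.05. Leaving out replicate 2 gave -0.060 and leaving out replicate 4 gave -0.0014, so no order of these genes was resolved. In expected counts, which grow with transcript length, H3f3a had the smaller share in every library, 28.5% to 40.8%.

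The H2A.Z genes were unequal. H2afz, encoding H2A.Z.1, stood at 74.1, 43.1, 37.3 and 61.8 TPM in replicates 1 to 4, and H2afv, encoding H2A.Z.2, at 10.1, 10.4, 8.63 and 16.7 TPM. H2afz was the higher gene in 4 of 4 libraries, with 82.2 ± 4.08% of their joint TPM (SD, n = 4). The difference was 2.13 ± 0.43 on the log2(TPM + 1) scale, matched or exceeded in 2 of 16 patterns by the exact two-sided permutation, the fewest possible. Replicate 1 had the largest H2afz share, 88.0%, against 80.6%, 81.2% and 78.7% in replicates 2, 3 and 4.

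H2afy, encoding macroH2A1, stood at 39.6, 27.7, 28.9 and 41.3 TPM in replicates 1 to 4, with replicates 1 and 4 above the others. In CPM scaled by TMM, H2afy had 83.5, 76.7, 78.1 and 75.5, so replicate 4 was the lowest on that scale. H2afj, encoding the H2A.J protein, stood at 11.8, 13.9, 13.9 and 19.2 TPM, lowest in replicate 1. H2afx stood at 13.7, 6.12, 5.45 and 7.64 TPM, highest in replicate 1, which exceeded replicate 3 by 2.51 times. Apart from H1fx, that was the widest relative range among the members.

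The linker variants were the most unequal pair. H1f0 stood at 16.6, 16.4, 13.5 and 24.8 TPM in replicates 1 to 4. H1fx, another linker histone gene, was near the floor, with 8, 12, 4 and 3 expected counts and 0.17, 0.13, 0.05 and 0.05 TPM. H1f0 was higher in 4 of 4 libraries by 4.07 ± 0.38 on the log2(TPM + 1) scale (SD, n = 4), also as far from 0 in 2 of 16 sign patterns, a size that the pseudocount of 1 TPM limits. With so few counts, H1fx was not tested between libraries.

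From highest to lowest, the mean levels ran H3f3a, H3f3b, H2afz, H2afy, H1f0, H2afj, H2afv, H2afx and H1fx. Of the 8 steps between neighbours, 5 held in 4 of 4 libraries. The step between H3f3a and H3f3b held in 2 libraries, that of H1f0 over H2afj in 3 (0.25 ± 0.21 on the log2(TPM + 1) scale) and that of H2afv over H2afx in 3 (0.47 ± 0.62). Only replicate 1 put H2afx above H2afv. The signal recognition particle RNAs took 57.1% to 63.3% of a library's TPM, so every TPM here is lowered by that share. Orders within a library are not affected, whereas orders of libraries in TPM can be.

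**Figure D1:**
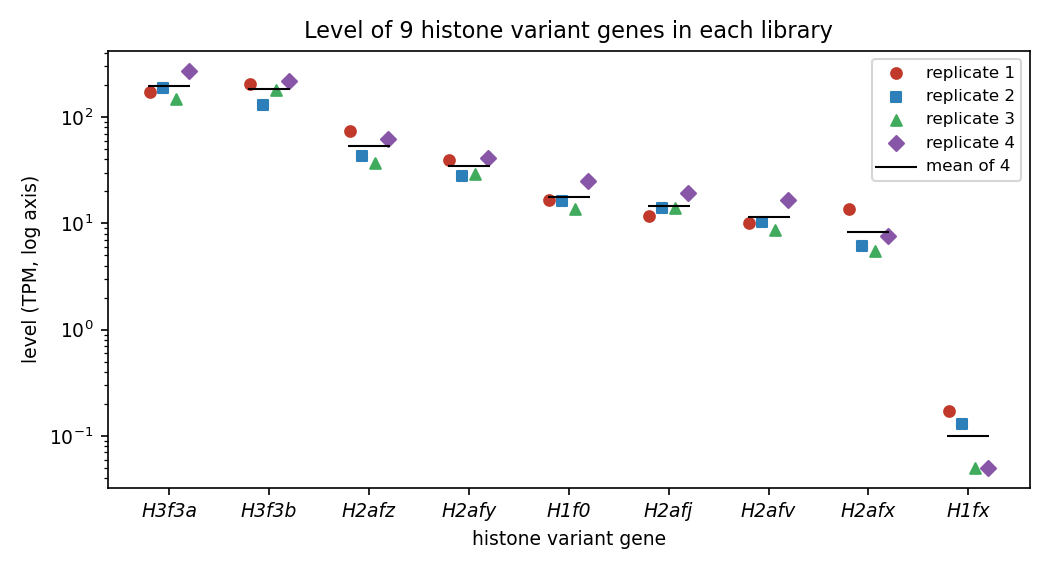
Level in TPM (log axis) of the 9 histone variant genes, by library; symbols are single libraries and the black line is the mean of 4. H3f3a and H3f3b overlap at 131 to 274 TPM, H1fx lies at 0.05 to 0.17 TPM, and replicate 1 is the top library for H2afz and H2afx but the bottom one for H2afj.

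Set beside the clustered genes of the same class, the variants made a large part of H3 mRNA and a smaller part of H2A and H1 mRNA. H3f3a and H3f3b held 50.4%, 75.0%, 74.1% and 77.4% of H3 TPM in replicates 1, 2, 3 and 4, against 12 clustered H3 genes. The 5 H2A variants held 18.9%, 27.3%, 26.3% and 32.4% of H2A TPM, against 18 clustered genes. H1f0 and H1fx held 9.20%, 18.5%, 14.2% and 18.4% of H1 TPM, against 5. Replicate 1 had the smallest variant share in all 3 classes. The other variant histone genes described below, Cenpa among them, were in neither sum.

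For H3, the variant sum was 377 TPM in replicate 1, against 319, 327 and 491 TPM in replicates 2, 3 and 4, whereas the clustered sum was 372 TPM in replicate 1, against 106, 114 and 144 TPM. In this TPM, the variant sum of replicate 1 thus lay within the range of the others and the clustered sum above it. Other scales placed the variants differently. On the target tables, a second quantification, the variant sum was 210 TPM in replicate 1, against 119, 95.3 and 146 in replicates 2, 3 and 4. In CPM scaled by TMM, H3f3a had 212 in replicate 1, below 309, 250 and 338. H3f3b had 531, within the range of 466, 590 and 490. The scale mattered, since clustered histone mRNAs are short: in expected counts the variant share averaged 86.8 ± 6.01% for H3, 50.2 ± 3.78% for H2A and 20.2 ± 4.45% for H1 (SD, n = 4), against 69.2 ± 12.6%, 26.2 ± 5.53% and 15.1 ± 4.41% in TPM. Replicate 1 was again the lowest library for each class in counts.

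**Figure D2:**
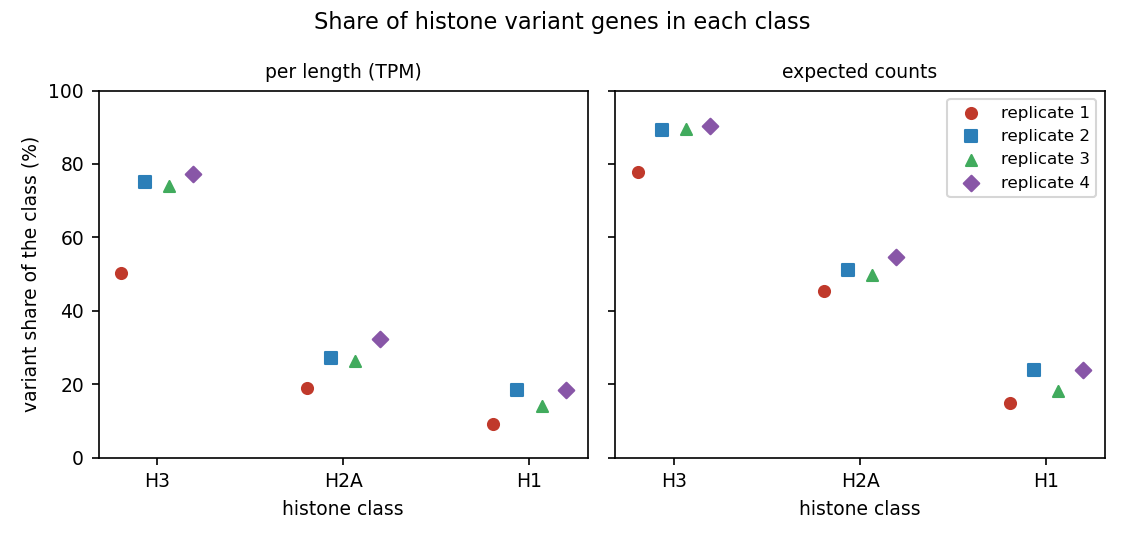
Share of the member genes in the summed expression of members and clustered genes (percent, y axis), for H3, H2A and H1 in each library. The left panel is per length (TPM) and the right panel is in expected counts. Replicate 1 is the lowest point in each class, at 50.4% for H3 in TPM against 74.1% to 77.4% in the other libraries.

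Of the variants, 2 of the 8 tested members were called higher and 1 lower in replicate 1, beside 14.5% and 7.58% of all genes. H2afx, the DNA damage variant, had 23.7 CPM, scaled by TMM, in replicate 1 against 14.5, 13.0 and 12.3 in replicates 2, 3 and 4, with replicate 1 above all others. Its log2 fold change was 0.84 ± 0.12 (SE; adjusted p = 0.012, edgeR's quasi-likelihood test), and the adjusted p ran from 0.00178 to 0.0303 over 7 alternatives. H2afz had 92.9 CPM in replicate 1 against 74.0, 64.7 and 72.1, again above all others. Its log2 fold change was 0.40 ± 0.10 (SE; edgeR adjusted p = 0.048), a call that was lost without replicate 3 (0.052), without replicate 4 (0.116) and with RLE in place of TMM size factors (0.070).

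H2afj moved the other way. It had 19.3 CPM in replicate 1 against 31.8, 30.2 and 30.0 in replicates 2, 3 and 4, so replicate 1 lay below all others. Its log2 fold change was -0.67 ± 0.10 (SE; edgeR adjusted p = 0.012), and the call was lost on the target tables, a second quantification (-0.41, adjusted p = 0.087). Without replicate 1, the SD of log2 CPM dropped to 0.05 for H2afj and to 0.12 for H2afx, against 0.34 and 0.43 with it.

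The 5 other tested members did not pass the threshold. H3f3a had 212 CPM in replicate 1 against 309, 250 and 338 in replicates 2, 3 and 4, below all others, with a log2 fold change of -0.50 ± 0.19 (SE; edgeR adjusted p = 0.131). It was called with DESeq2 (adjusted p = 0.017) and without replicate 3 (edgeR, 0.046). H1f0, at -0.36 ± 0.15 (edgeR adjusted p = 0.151), was called without replicate 3 (0.036), and H2afv stood at -0.43 ± 0.18 (0.165). H2afy (0.12 ± 0.08) and H3f3b (0.04 ± 0.17) had the smallest folds. The median log2 fold change of the 8 members was -0.16, against -0.0045 over all tested genes. In replicates 2, 3 and 4, each against the other 3, edgeR called 0 members, with 0 at an unadjusted p under 0.05 and 0 called by DESeq2, beside 0.0% of all genes by edgeR in each direction.

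**Figure D3:**
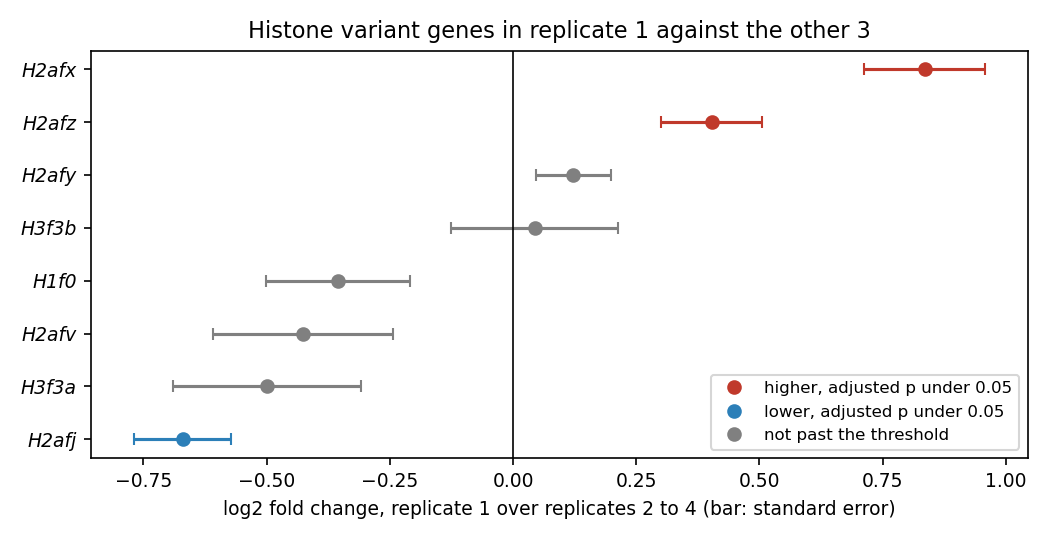
Log2 fold change of the 8 tested histone variant genes in replicate 1 over replicates 2 to 4, with its standard error as a bar. H2afx and H2afz lie right of 0 and are called higher, H2afj lies left and is called lower, and the grey genes did not pass an adjusted p of 0.05.

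All 8 tested members varied between libraries beyond Poisson counting, as did 82.8% of tested genes. Their median SD of log2 CPM was 0.24, against 0.25 over all tested genes. Over the 9313 tested genes with a mean of at least 5 CPM, which leaves out the noisier low counts, it was 0.18. H2afx was the most variable (0.43) and H2afy the least (0.06), with 5.75% of tested genes at a smaller SD. Without replicate 1, H2afy and H2afj no longer varied beyond counting (Poisson deviance, adjusted p = 0.696 and 0.191), and without replicate 4 H2afy did not (0.578).

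Most like H2afx in pattern over the 4 libraries were Ahi1, Tiam1 and Tsen15, whose centred log2 CPM differed from it by at most 0.02, 0.03 and 0.03 in any library. Most like H2afj were Ube2h, Ago4 and Kctd21, with largest differences of 0.01, 0.01 and 0.02. They are the nearest of 10418 genes with a mean of at least 100 counts, and with 4 libraries such nearness is a description.

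The genes that place these variants in chromatin, by fixed lists, were present throughout. For every list, calls in replicate 1 are to be read beside the shares of all tested genes called there, given above. All 9 H3.3 deposition genes averaged at least 1 TPM, and the most abundant were Dek, an H3.3 chaperone and chromatin protein, at 32.1 ± 11.5 TPM (SD, n = 4), the remodeller Atrx at 21.3 ± 4.31 and its partner Daxx at 13.0 ± 3.01. In replicate 1, 3 of the 9 were called higher and 2 lower, with a median log2 fold change of -0.10. Asf1b, the ASF1 chaperone of dividing cells, had 6.78 TPM in replicate 1 against 1.20, 1.25 and 2.24 in replicates 2, 3 and 4 (log2 fold change 1.89 ± 0.18, SE; edgeR adjusted p = 0.0048). Asf1a (0.70) and Dek (0.52) were also higher, and Ubn1, a subunit of the HIRA complex, was lower (-0.49) as was Daxx (-0.34).

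Of 14 H2A.Z exchange genes, 14 averaged at least 1 TPM, and 5 were called higher and 0 lower in replicate 1, with a median log2 fold change of 0.04. The 5 were the chaperones Nap1l1 (1.10) and Nap1l4 (0.79), the ATPases Ruvbl1 (0.74) and Ruvbl2 (0.70), and Anp32e (0.61), which removes H2A.Z. The catalytic subunits Srcap (-0.27, adjusted p = 0.19) and Ep400 (-0.08, 0.51) were not called by edgeR. Of 9 genes of H2A.X signalling, 5 were called higher and 0 lower, with a median of 0.57: the kinases Atm (0.61), Atr (0.65) and Prkdc (0.57), the adaptor Mdc1 (0.83), which binds phosphorylated H2A.X, and the ubiquitin ligase Rnf168 (0.57).

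Genes of the clustered histone programme also differed in replicate 1. Of 9 genes for replication-coupled assembly and histone mRNA processing, 6 were called higher and 0 lower, with a median log2 fold change of 0.96; among them were Chaf1a (2.07 ± 0.12, SE) and Chaf1b (1.75 ± 0.11) of the CAF-1 chaperone and Slbp (1.09 ± 0.09), which binds the stem-loop. Of 65 clustered histone genes, 62 were tested, and 40 were called higher and 4 lower in replicate 1, with a median of 1.27. Their values carry the uncertainty of near-identical copies. Of 18 S phase and mitosis genes, 17 were called higher (edgeR) with a median of 1.99, and Ccnb1 was not (0.97, adjusted p = 0.106). The part of this S phase difference in the folds of the variants was not tested.

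Most other variant histone genes were near or at 0 counts. Of 13 genes found from a list of 14, 2 averaged at least 1 TPM and 3 were tested. Cenpa, the H3 variant of centromeres, had 8.62 TPM in replicate 1 against 23.6, 21.9 and 45.3 TPM in replicates 2, 3 and 4, and was called lower (log2 fold change -2.12 ± 0.26, SE; edgeR adjusted p = 0.0079), while the S phase genes were higher there. H2afy2, encoding macroH2A2, averaged 0.89 ± 0.26 TPM and was not called (-0.76, adjusted p = 0.176). H3f3c, which GENCODE M21 types as a processed pseudogene and which matches the H3f3a coding region at 99.0% of bases, averaged 1.00 ± 0.64 TPM and was not called either.

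Shares of each gene among its transcript models, which the authors deposited as percent of the gene's expression, were stable for most members. H2afx, H1f0 and H1fx have 1 model each, and H2afz-201 held 97.9 ± 1.25% (SD, n = 4) of H2afz. H2afj was split between H2afj-201 (59.5 ± 2.52%) and H2afj-202 (40.5 ± 2.52%), whose coding regions have 387 and 378 bases. These shares are estimates from short reads and rest on the annotated models.

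For H3f3a and H2afv, the leading model was not the longest coding one. H3f3a-201, with a coding region of 405 bases, 3 fewer than that of H3f3a-205 and H3f3a-207, held 55.6%, 52.9%, 55.2% and 53.8% of H3f3a in replicates 1 to 4. H3f3a-207 held 33.2 ± 2.25% and H3f3a-205 11.4 ± 1.64% (SD, n = 4). H2afv-201 held 55.2%, 57.5%, 58.4% and 57.7% of H2afv, and it lacks a coding exon of 114 bases, chr11:6433724-6433837 on mm10, that H2afv-202 has. Its coding region therefore codes for 90 residues in place of 128. On the target tables H2afv-201 held 66.7 ± 1.02%.

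H2afy was the member whose models changed place between libraries. H2afy-201, the macroH2A1.2 model, held 45.0%, 29.3%, 27.5% and 26.5% of H2afy in replicates 1, 2, 3 and 4, and H2afy-202, the macroH2A1.1 model, held 21.7%, 33.5%, 30.0% and 32.0%. In replicate 1 H2afy-201 was the larger, and in the other 3 libraries H2afy-202 was. As a share of both coding models, H2afy-201 made 67.4% in replicate 1 against 46.6%, 47.8% and 45.3% in replicates 2, 3 and 4, where the SD was 1.24.

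The same order was seen on the target tables, with 67.4% against 48.7%, 48.4% and 44.4%. In expected counts, H2afy-201 had 1550 in replicate 1 against 1388, 1110 and 1322, and H2afy-202 had 702 against 1491, 1139 and 1498. With 1 library against 3 and no planned test of shares, this is a description. The summed S phase level that sets replicate 1 apart is given above, and its part in the share of H2afy-201 was not tested. H2afy-204, a model with no coding region, held 33.9 ± 2.34% (SD, n = 4) of H2afy TPM. It held more than either coding model in replicates 2, 3 and 4, and less than H2afy-201 in replicate 1.

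**Figure D4:**
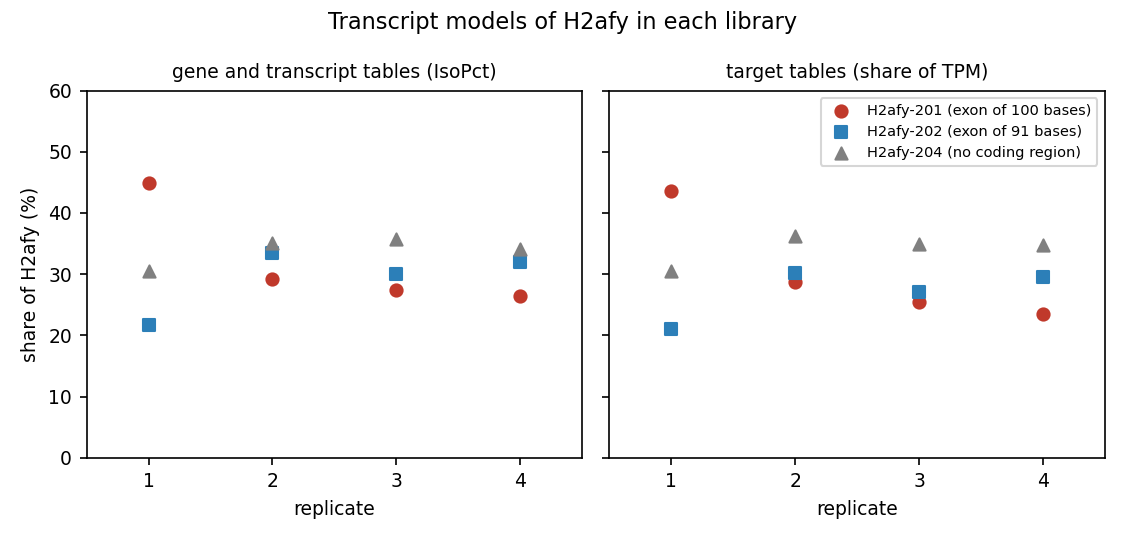
Share of H2afy in percent (y axis) of its 3 main transcript models in each replicate, from the deposited isoform percentages on the left and from the target tables on the right. H2afy-201 lies above H2afy-202 in replicate 1, at 45.0% against 21.7% on the left, and below it in replicates 2, 3 and 4.

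Models without a coding region took more of H3f3b and H2afy in replicates 3 and 4. The 2 noncoding models of H3f3b held 3.63%, 2.79%, 13.2% and 12.1% of the gene in replicates 1, 2, 3 and 4, and H3f3b-201, its main coding model, 95.6%, 96.3%, 86.1% and 87.1%. The 3 retained-intron models of H2afy held 2.73%, 2.06%, 6.70% and 7.21%. Replicates 3 and 4 were the higher libraries for both genes and also for the retained-intron model of H3f3a (0.72%, 0.36%, 1.30% and 0.99%).

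The nuclear-retained RNA Malat1 had 306, 242, 984 and 941 TPM in replicates 1 to 4, and Neat1, of nuclear paraspeckles, had 35.1, 25.0, 115 and 79.4 TPM. Gm17275, a noncoding gene on the strand opposite H3f3a, had 64, 84, 528 and 788 counts. The spans of the genes, introns included, overlap by 6916 bases. Malat1, Neat1 and Gm17275 all had replicates 3 and 4 above replicates 1 and 2. The noncoding models of H3f3b and the retained-intron models of H2afy and H3f3a did so too. H2afy-204 did not, at 30.5%, 35.1%, 35.8% and 34.1% of H2afy in replicates 1, 2, 3 and 4. The part of Malat1, Neat1 and Gm17275 in the shares of these models was not tested. No source used here states whether strand was used in counting, so reads of H3f3a and Gm17275 cannot be told apart where their exons overlap. How far the exons overlap was not measured.

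**Figure D5:**
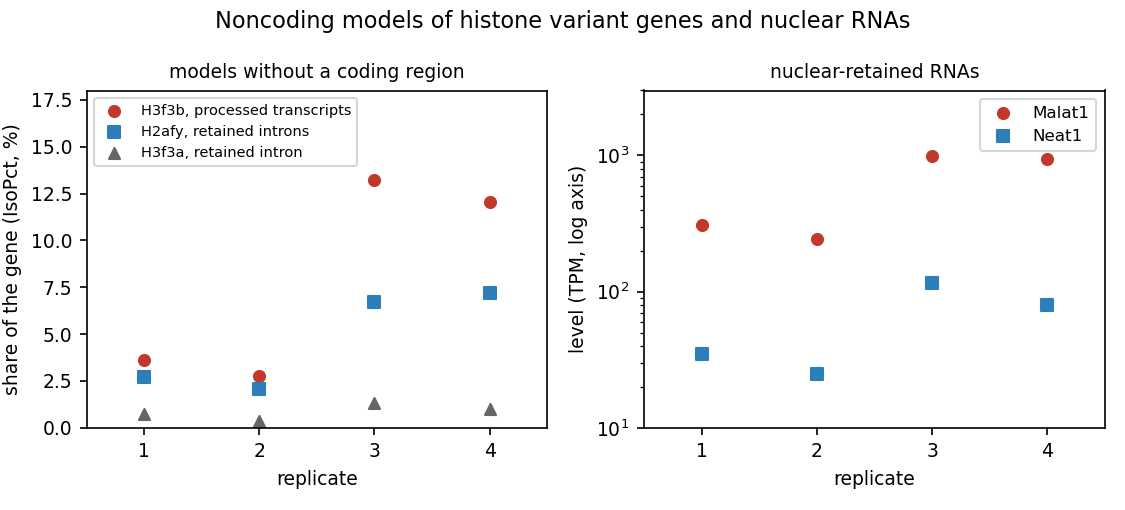
The left panel gives the share of each gene (percent), by replicate, in the noncoding models of H3f3b and the retained-intron models of H2afy and H3f3a. The other H2afy models without a coding region, H2afy-204 among them, are not shown. The right panel gives the level of Malat1 and Neat1 in TPM (log axis). Replicates 3 and 4 lie above replicates 1 and 2 in every set of points.

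Pseudogenes of the members took few reads. H3f3a has 37, H3f3c among them, on mm10 with at least 90% identity over at least 150 bases, and together they held 0.370% to 0.627% of the summed counts. H3f3b has 3 and H2afz has 4, with at most 0.0692% and 0.603%. The H2afz coding region also lies whole in 1 retained-intron transcript of Tmcc1, which held 14.8 to 68.7 counts per library. Other expressed genes are the larger overlap: H2afx and H2afj match 21 and 16 genes at that limit, most of them clustered H2A genes. At 90.3% identity to H2afx, Hist2h2aa2 alone had 2103, 3191, 2724 and 2252 counts, and Gm20634, a noncoding gene, had 380, 1008, 1195 and 1237. H2afx itself had 757, 670, 488 and 592 counts. The posterior SD of a member's count, as deposited, was at most 0.344% of it, for H3f3a in replicate 3. How reads were divided between copies is the authors' estimate, so values of these genes stay uncertain to that extent.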

How the data were processed

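Total RNA of the cytosolic fraction was sequenced from 4 libraries of 1 group, per the labels. The authors deposited gene tables of expected counts and TPM, transcript tables with the percent of a gene in each isoform, and target tables of estimated counts and TPM, on mm10 and GENCODE M21 per the texts deposited beside the files. No source used here names the aligner or quantifier. Features that name no gene (26345, with 0.0267% to 0.407% of counts) were left out. Expected counts were rounded, filtered at a mean of 10, scaled by TMM and tested in edgeR 4.0.16 under R 4.3.3, each replicate against the other 3; the lone replicate is assumed to vary like the others. The SE of an edgeR log2 fold change was computed as its absolute value over the square root of the F statistic. Alternatives were DESeq2 1.42.0, its size factors, no filter, the target tables and leaving out libraries. Procedures were tested on simulated data. TPM of gene pairs was compared as log2(TPM + 1) by exact sign-flip permutation. Coding regions came from the GENCODE M21 annotation and transcripts; copies were sought with BLAST 2.17.0. Python 3.11.15, pandas 2.3.3, scipy 1.17.1, Biopython 1.88 and matplotlib 3.10.9 did the rest.

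The members, lists and tests were chosen with earlier results of these data known, and the shares of the H3, H2A and H1 classes and the count of models without a coding region were added after the values had been seen. Named are the 9 members, list genes among the 3 most abundant or called, and, for the 2 members of widest range, the 3 genes most like each. Genes named outside that rule are Srcap, Ep400, Ccnb1, H2afy2 and H3f3c as uncalled list members and Gm17275, Tmcc1, Hist2h2aa2 and Gm20634 as overlapping genes or copies. Floors are 3 counts and cover counting error only.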

Additional observations from a re-analysis of the deposited data

Results flagged for a closer look

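Of 23 levels, shares and differences screened, 1 had a library far from the others: the share of H2afy-201 in H2afy, at 45.0% in replicate 1 against 29.3%, 27.5% and 26.5% in replicates 2, 3 and 4. Its gap to the nearest library was 0.851 of the whole range, above Dixon's 95% critical value for 4 samples. Chance flags about 1 in 20 such groups.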

How the results depend on the processing

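Over the 4 library comparisons, 208 of 224 single-member alternatives kept direction and side of the threshold, 4 lost a call (H2afz with 3, H2afj with 1), 3 gained one (H3f3a with 2, H1f0 with 1) and 9 changed sign without being called either way. The calls lost and gained were all in replicate 1, and the alternatives of the other replicates had no call to lose. With a library left out, the log2 fold change of H3f3b in replicate 1 ran from -0.068 to 0.15, negative without replicate 2 or 4. The other sign changes came without replicate 1. In replicate 2, H2afz ran from -0.16 to 0.12, H2afx from -0.31 to 0.21 and H2afy from -0.052 to 0.0097. In replicate 3, H2afy ran from -0.028 to 0.018 and H2afj from -0.056 to 0.29. In replicate 4, H2afz ran from -0.21 to 0.062 and H2afj from -0.040 to 0.28. Members called in replicate 1 numbered 2 to 4 when a library was left out, and 0 throughout in replicates 2, 3 and 4; genes called in replicate 1 numbered 2525 to 3194. In the other replicates, where edgeR called 0 genes, DESeq2 called 8, 3 and 17 in replicates 2, 3 and 4, no filter called 1 in replicate 4, and leaving out a library called 0 to 82 in replicate 2, 0 in replicate 3 and 0 to 1 in replicate 4. The cause was not tested. Members varying beyond counting numbered 6 to 8. The summed level of 519 TPM was 195 on the target tables and 1282 when rescaled without the 7SL genes, and 472 to 547 with a library left out. Likewise, H3f3a minus H3f3b ranged from -0.060 (without replicate 2; -0.0014 without replicate 4) to 0.20, H2afz minus H2afv from 1.93 to 2.24 and H1f0 minus H1fx from 3.88 to 4.16. The target tables gave 0.21, 1.74 and 2.73, and a pseudocount of 0.1 gave 0.08, 2.22 and 6.50. The sign was not settled for the first pair and held for the others under all of these. On the target tables the leading model's share moved beyond its SD for 2 of 9 members. No paired analysis was possible because there is only 1 group. Depth limits H1fx.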
